A study of Mus musculus with 7 samples.

Results

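The 10 syndecan and glypican genes of the mouse were examined as a family: Sdc1 to Sdc4 and Gpc1 to Gpc6, taken as every non-control probe of the array whose gene name in the files was one of these. They were read by 12 of the 55681 probes, with 2 probes each for Gpc3 and Gpc5 and 1 for every other gene. Probes had to clear background (Agilent's well-above-background flag) on 3 or more of the 7 arrays; 10 of the 12 did, 1 per gene, among 28280 kept probes and 20826 genes tested. On all 7 arrays 9 of the 12 member probes cleared it, 1 each for 9 of the 10 genes. Of all 55681 probes 23917 (43%) did, and these were all among the 28280 kept. The arrays held RNA from the forelimb bud of C57/Bl6 mouse embryos aged 11.5 days (E11.5). For 3 arrays the AER was dissected, short for apical ectodermal ridge, a thick strip of epithelium along the edge of the bud, and for 4 arrays posterior surface ectoderm, the control. The design text gives 2 to 3 mice per pool and 1 pool per replicate, so the spread between arrays is one between pools, and no genotype or treatment is named that differs between the groups. The array files of ectoderm replicates 2 and 4 carry the same sample number in their names, so both may come from 1 pool; they were counted as separate samples, as titled, and their average was tried as an alternative.

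Syndecans and glypicans are core proteins that carry heparan sulfate, a long sulfated sugar chain, on the cell surface. Syndecans span the membrane and end in a short cytoplasmic tail, whereas glypicans are held by a lipid (GPI) anchor. Through their chains both kinds bind fibroblast growth factors (FGFs), WNTs, BMPs and hedgehog proteins, and the binding of FGF to its receptor needs heparan sulfate. The ridge is the main FGF source of the limb bud, which is the reason to look at how the carriers of heparan sulfate differ between ridge and surface ectoderm.

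The probes matter here because each gene's result rests on a single probe, and because the other probes of Gpc3 and Gpc5 gave no usable signal. The first 30 bases of the 60-base probes of the glypicans discussed most are given 5′ to 3′ as the files hold them, with no base marked in capitals.
Gpc3, probe for NM_016697: aaatggtatctttatgaggatggtaaattt
Gpc3, probe for AK077942: gctctcagttattgggagtgaactttgcat
Gpc4, probe for NM_008150: tcctagtgactttgctttttaaatgaatgg
Gpc5, probe of the upstream part: atcttataaaccctggtgtgactgacagtt
Gpc5, probe of the downstream part: actgagtctatggcactccctctgatgggg
Gpc6, probe for NM_001079844: gcattctcttaacataacaactcacaacaa
In coordinates of the file headers' build, mm9, the Gpc3 probes lay at chrX:49625740-49625799 and chrX:49740892-49740951 on the minus strand, with starts 115152 bases apart. The Gpc4 probe lay at chrX:49406560-49406619, also on the minus strand. The Gpc5 probes lay at chr14:115768958-115769017 and chr14:116923600-116923659 on the plus strand, with starts 1154642 bases apart, and the Gpc6 probe at chr14:118375311-118375370 on the plus strand. Whether a probe lies in coding or untranslated sequence was not looked up. In the RefSeq gene order Gpc4 and Gpc3 are neighbouring protein-coding genes on chromosome X, and Gpc5 and Gpc6 on chromosome 14.

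Most of the family did not pass the test between ridge and ectoderm, and the members that did were glypicans. Gpc3 was 2.16-fold lower in the AER (95% interval 1.62 to 2.88) and Gpc6 1.54-fold lower (1.24 to 1.91). No member was called higher, and 8 did not pass. For the 10 kept member probes, adjusted over all 28280, the same 2 were lower and 0 higher, against 8.03% and 6.98% of probes. Calls are limma's moderated test, two-sided, on 3 against 4 arrays, with Benjamini-Hochberg adjustment over all genes tested and a threshold of 0.05. Over all genes, 8.65% were called lower in the AER, 7.03% higher and 15.7% in either direction. The median log2 difference (AER minus ectoderm) was -0.17 over the 10 members and -0.08 over all genes, and 7 members were fitted lower and 3 higher. For 7 of the 8 members that did not pass, the 95% interval lay within 2-fold in either direction, and for Sdc4 it reached past 2-fold higher. In these bulk samples fewer cells of a type and less RNA per cell cannot be told apart.

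**Figure D1:**
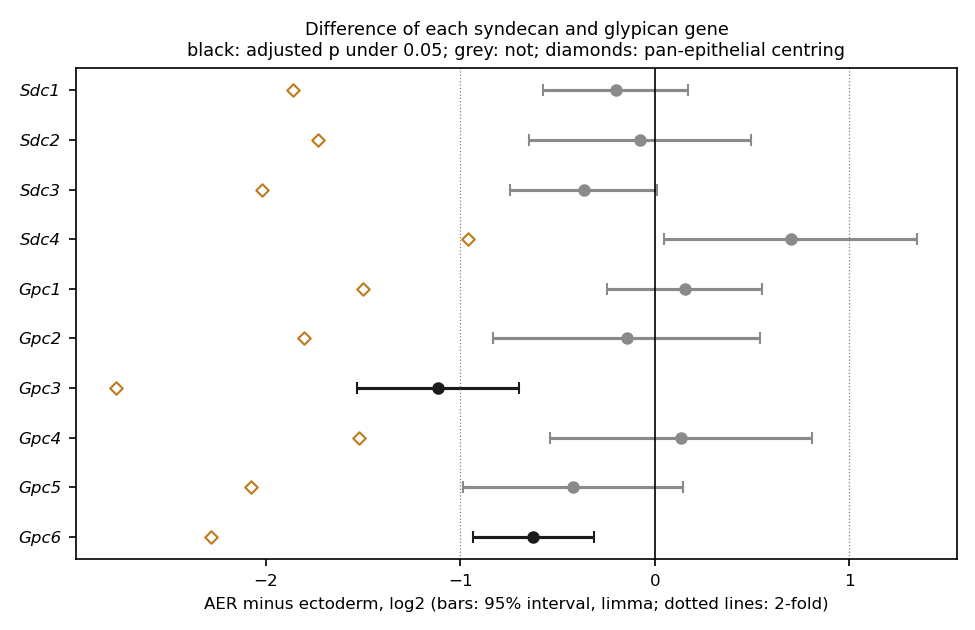
Log2 difference (AER minus ectoderm, x axis) of each of the 10 genes, as circles with 95% intervals from limma; black circles passed the adjusted threshold, grey ones did not, and dotted lines mark 2-fold. The intervals of Gpc3 and Gpc6 lie below 0, and the open diamonds, for arrays centred on pan-epithelial markers, lie below 0 for all 10 genes.

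Levels below are log2 processed signals relative to the array's 75th percentile, where 0 is that percentile; signals of different probes are not comparable as amounts. The 75th percentile itself lay between 257 and 563 signal units, 47.6% to 54.2% of probes were well above background on an array, and no probe was saturated. All arrays shared 1 slide and 1 scan time. For 93 probes with 10 spots each, the median SD across spots came to 0.172 and 0.168 (log2) on AER replicates 1 and 2 and 0.0550 to 0.0570 on the other 5 arrays. Each member probe had a single spot per array, so its value on AER replicates 1 and 2 carries this wider spot error. The dissection was checked on markers. All 12 known AER markers tested, Cd44 among them, were higher in the AER. Of 19 limb mesenchyme markers, 15 were lower, with means of 0.50 to 0.99 on the AER arrays and 3.36 to 3.84 on the ectoderm arrays. All 8 muscle progenitor markers tested were lower too, from -4.41 to -2.78 against 0.69 to 1.41. Of 24 pan-epithelial markers, 20 were higher, with means of 2.34 to 2.62 against 0.62 to 1.06. Among the mesenchyme markers Osr2 was on no AER array well above background, and the other 18 were above it on at least 1.

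Syndecans are taken first. Sdc1, the syndecan typical of epithelia, had levels of 4.27, 3.88 and 4.26 on the AER arrays and 4.33, 4.14, 4.50 and 4.37 on the ectoderm arrays. The groups overlapped. AER minus ectoderm, the log2 difference was -0.20 (SE 0.16; adjusted p = 0.429, limma), with an interval of -0.58 to 0.17. Under this scaling the lower end of the interval is a 1.49-fold lower level in the AER, which is not a firm limit. With arrays centred on pan-epithelial markers the difference was -1.86 and past the threshold. Under normexp background correction the difference was 0.15 and with the authors' deposited values 0.27, neither past the threshold.

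Sdc2, a syndecan known from mesenchymal cells, stood at 3.22, 2.69 and 2.73 in the AER and at 2.98, 3.30, 2.37 and 3.18 in the ectoderm. The lowest and the highest value both belonged to ectoderm arrays, with ectoderm replicate 3 the lowest. The groups differed in log2 level by -0.08 (95% interval -0.65 to 0.50; adjusted p = 0.864).

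Sdc3, a syndecan known from limb mesenchyme, cartilage and nerve, stood at 1.33, 1.02 and 1.02 in the AER and at 1.20, 1.52, 1.61 and 1.60 in the ectoderm. AER replicate 1 lay above ectoderm replicate 1, and the other AER arrays lay below all ectoderm arrays. On the log2 scale the groups differed by -0.36 (95% interval -0.74 to 0.01; adjusted p = 0.178). It was -0.58 and past the threshold with normexp (adjusted p = 0.0372), and -0.56 with the authors' deposited values (adjusted p = 0.0355).

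Sdc4, a syndecan of focal adhesions, was the member with the highest fitted difference. It stood at -1.75, -2.15 and -0.95 in the AER and at -2.26, -2.02, -2.65 and -2.32 in the ectoderm. AER replicate 3 was the highest array, and AER replicate 2 lay below ectoderm replicate 2. The log2 difference was 0.70 (SE 0.28, 95% interval 0.05 to 1.35; adjusted p = 0.138). It passed with the authors' deposited values (0.59, adjusted p = 0.0376) and with array weights (1.05, adjusted p = 0.0154). Without AER replicate 3 it was 0.36 (adjusted p = 0.307).

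**Figure D2:**
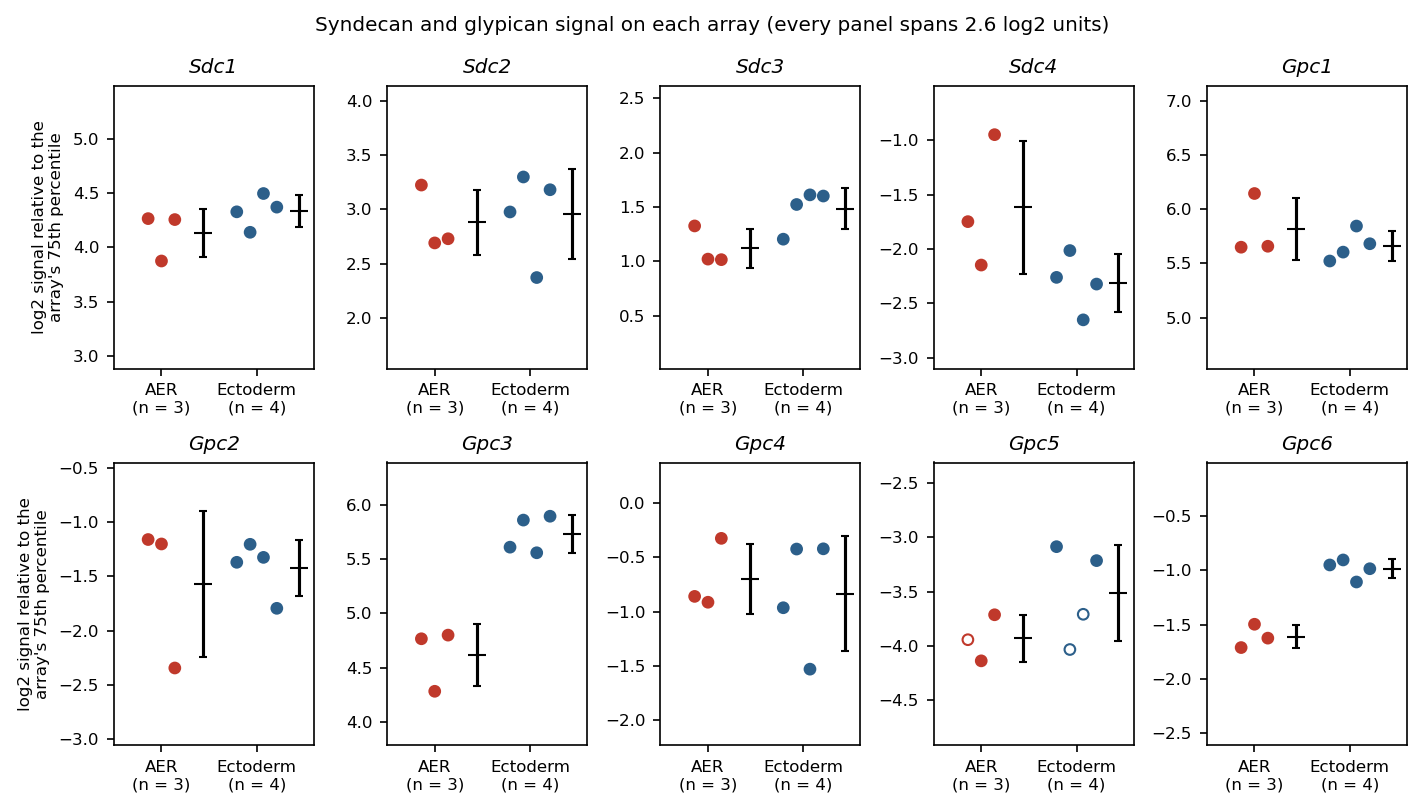
Log2 signal of each gene relative to the array's 75th percentile (y axis; every panel spans the same number of log2 units) on the 3 AER arrays (red) and 4 ectoderm arrays (blue), replicates from left to right. Bars show mean and SD, and open circles are arrays where the probe was not well above background. The groups are apart for Gpc3 and Gpc6 and overlap for the other 8 genes.

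Among glypicans, Gpc1, which is widely expressed, stood at 5.65, 6.14 and 5.66 in the AER and at 5.52, 5.60, 5.84 and 5.68 in the ectoderm. AER replicate 2 was the highest array, and the other AER arrays lay among the ectoderm arrays. The fitted log2 difference came to 0.15 (95% interval -0.24 to 0.55; adjusted p = 0.578). Leaving out AER replicate 2 brought it to -0.0092.

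Gpc2, also called cerebroglycan and known from developing neurons, stood at -1.16, -1.20 and -2.34 in the AER and at -1.37, -1.21, -1.33 and -1.79 in the ectoderm. AER replicate 3 was the lowest of the 7 arrays and the other AER arrays were the 2 highest. The log2 difference was -0.14 (SE 0.30; adjusted p = 0.777), and it was 0.24 without AER replicate 3 (adjusted p = 0.443).

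Gpc3, the glypican that holds back hedgehog signalling and whose loss causes an overgrowth syndrome with limb defects, was the clearest of the family. Its levels were 4.77, 4.28 and 4.80 in the AER and 5.61, 5.86, 5.56 and 5.89 in the ectoderm. In signal units, the AER arrays held 9271, 10961 and 10950 and the ectoderm arrays 19982, 25758, 12090 and 20530. After scaling, every AER array lay below every ectoderm array, with a gap of 0.76 (log2) between the groups. Such a separation was found for 2 of the 10 members; over all genes tested it was found in 17.8% in this direction, 12.5% in the other and 30.3% in either. The group means were 4.62 (SD 0.29, n = 3) and 5.73 (SD 0.17, n = 4). Between groups the log2 difference was -1.11 (SE 0.18, limma adjusted p = 0.00381). It kept its sign and stayed past the threshold when any single array was left out, between -1.21 and -0.95. With AER replicate 3 as the lone AER array the difference was -0.93, and the call was lost. It was -0.91 within slide row 1 (adjusted p = 0.107) and -1.35 within slide row 2 (adjusted p = 0.120), where each fit had a single array in 1 of the groups. The authors' deposited values gave -0.73 (adjusted p = 0.00762), over 1.5 times smaller. The other Gpc3 probe, for AK077942, was on no array well above background (signals of 5.49 to 30.5 units) and was left out by the filter.

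Gpc4, the X-linked neighbour of Gpc3 and a glypican known from WNT signalling, did not pass the test. It stood at -0.86, -0.91 and -0.32 in the AER and at -0.96, -0.42, -1.53 and -0.42 in the ectoderm. The highest value was on AER replicate 3 and the lowest on ectoderm replicate 3. The log2 difference was 0.14 (95% interval -0.54 to 0.81; adjusted p = 0.788).

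Because these genes sit side by side, their probes were also set against each other within each array, a ratio that no single scaling factor per array can shift. It was chosen after the values were seen and is given as a description, with no test. The log2 ratio of the Gpc3 signal to the Gpc4 signal was 5.62, 5.19 and 5.12 on the AER arrays and 6.57, 6.28, 7.09 and 6.31 on the ectoderm arrays. Its size says nothing about amounts, but it was lower on every AER array than on every ectoderm array. Gpc3 by itself was already apart in this way, as were 17.8% of all genes tested. The share of genes that are apart when set against Gpc4 was not counted. The group means of the ratio differed by -1.25, a 2.38-fold shift, of which Gpc3's own difference was -1.11. Background correction and quantile normalization can change it. With the authors' deposited values Gpc3 differed by -0.73 and Gpc4 by 0.12, a smaller shift between them. The same ratio of Gpc6 to Gpc4 differed by -0.76, with AER values of -0.85, -0.58 and -1.30 and ectoderm values of 0.01, -0.48, 0.42 and -0.56.

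**Figure D3:**
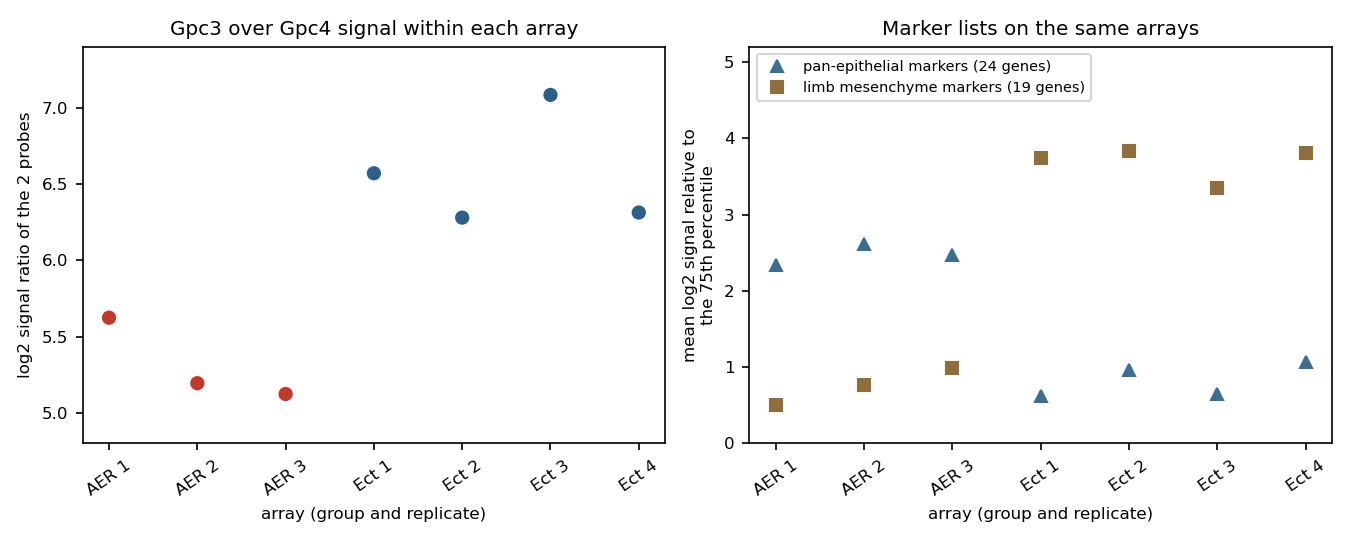
Left, the log2 ratio of the Gpc3 to the Gpc4 probe signal on each array (red AER, blue ectoderm): the AER arrays lie at 5.12 to 5.62 and the ectoderm arrays at 6.28 to 7.09. Right, the mean log2 signal of 24 pan-epithelial and 19 limb mesenchyme markers on the same arrays: mesenchyme markers are lower and epithelial markers higher on all 3 AER arrays.

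The starts of these neighbours are shown since Gpc3 was called and Gpc4 was not; that these genes differ in their change was not tested. The 100 bases before the RefSeq start (GRCm38.p6, minus strand) are printed 5′ to 3′, with capitals for the GC box, GGGCGG or its other strand CCGCCC, the core letters that SP-family factors bind.
Gpc3, chrX:52613975-52614074: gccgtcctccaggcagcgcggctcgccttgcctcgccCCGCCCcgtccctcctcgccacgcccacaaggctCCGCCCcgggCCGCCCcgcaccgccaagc
Gpc4, chrX:52164924-52165023: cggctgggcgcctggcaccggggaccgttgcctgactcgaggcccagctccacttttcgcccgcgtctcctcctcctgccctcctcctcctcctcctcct
The Gpc3 stretch held 3 GC boxes and the Gpc4 stretch 0. In the whole 300-base windows, from 250 bases before to 50 after the start, Gpc3 held 4 and Gpc4 held 1. RefSeq windows were found for 7 of the 10 members, Sdc1, Sdc3, Sdc4, Gpc2, Gpc3, Gpc4 and Gpc5, and all 7 held at least 1 GC box. Of 32851 windows in the table, 35.7% did. Among the other members with a window, none of them called, Sdc4 held 4, Sdc1, Sdc3 and Gpc2 held 3 each and Gpc5 held 1. The GC content of the 7 windows ran from 54.67% for Gpc5 to 77.67% for Sdc3. The letters TATAAA or TTTATA were in the window of Gpc5 alone among these members, against 13.6% of all windows. CCAAT or ATTGG was in those of Sdc1, Gpc2 and Gpc3, against 37.4%. These are matches of letters and were not tested as binding sites.

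Gpc5, which raises hedgehog signalling in other tissues, was the dimmest member. Its downstream probe was well above background on 2 of 3 AER and 2 of 4 ectoderm arrays, with levels of -3.94, -4.14 and -3.71 against -3.09, -4.03, -3.71 and -3.21. The groups overlapped, and the log2 difference was -0.42 (95% interval -0.99 to 0.15; adjusted p = 0.283). Its upstream probe was well above background on no array, with signals of 4.73 to 11.0 units, and was not tested.

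Gpc6, the neighbour of Gpc5 and a glypican whose loss in humans shortens the limbs, had the tightest replicates of the family. Its levels were -1.71, -1.50 and -1.62 in the AER and -0.95, -0.90, -1.11 and -0.98 in the ectoderm. All AER arrays lay below all ectoderm arrays, with a gap of 0.39 (log2). The means were -1.61 (SD 0.11, n = 3) and -0.99 (SD 0.09, n = 4). The difference (log2) was -0.62 (SE 0.14; limma adjusted p = 0.0161). The call was lost without ectoderm replicate 1, 2 or 4 (adjusted p = 0.0516, 0.0583 and 0.0575), with ectoderm replicates 2 and 4 averaged (0.0534), with AER replicate 3 as the lone AER array (0.0746) and with no filter on dim probes (0.0623). The difference itself stayed between -0.72 and -0.43 in these and the other settings tried that did not recentre the arrays. Within slide row 1 it was -0.72 (adjusted p = 0.134) and within row 2 -0.58 (adjusted p = 0.730).

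The direction of the family depends on what the arrays are centred on. Centring each array on the mean of its 24 pan-epithelial markers lowers every log2 difference by 1.66. Then all 10 members were lower in the AER and past the threshold, from -0.96 for Sdc4 to -2.77 for Gpc3, while 19942 of 20826 genes were called, 211 of them higher. Levels were also taken relative to the mean of the 10 members on the same array, which no single scaling factor per array can shift. The AER and ectoderm arrays were then apart for 3 of the 10 genes, near the 28% of all genes that were apart when set against the same mean. Gpc3 lay at 3.47 to 3.85 in the AER and at 4.51 to 4.69 in the ectoderm, and Gpc6 at -2.69 to -2.31 against -2.18 to -2.05. Sdc4 lay above the ectoderm arrays, at -2.96 to -1.90 against -3.61 to -3.20, though its groups overlapped before this step. The mean of the members, with Gpc3 and Gpc6 among them, was itself at 0.81 to 0.98 in the AER and 0.96 to 1.20 in the ectoderm. A lower mean in the AER raises every gene set against it. Limb mesenchyme and muscle progenitor markers were also lower on the AER arrays, and their part in the lower Gpc3 and Gpc6 signals was not tested.

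Single arrays differed within their group as well. Ectoderm replicate 3 was the lowest ectoderm array for 5 members (Sdc2, Sdc4, Gpc3, Gpc4 and Gpc6) and the highest for 3 (Sdc1, Sdc3 and Gpc1). On that array the AER markers had a mean of 0.93, while the other ectoderm arrays lay at -0.70 to -0.23, and the limb mesenchyme markers had their lowest ectoderm mean of 3.36. Without it, Gpc3 differed by -1.17 (adjusted p = 0.00635) and Gpc6 by -0.66 (adjusted p = 0.0263). AER replicate 2 was the lowest AER array for 6 members, and its scaling percentile was the highest of all arrays.

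The genes that make, alter and cut heparan sulfate were then read from lists of 52 genes, of which 42 were tested. On them 6 genes were called higher in the AER and 5 lower. Over all genes tested 7.03% were called higher and 8.65% lower, and the counts of each list below stand beside these same shares. The linker and chain synthesis genes, among them Ext1 and Ext2, which polymerise the chain, had 0 of 10 tested genes past the threshold in either direction. Their median log2 difference was 0.23, against -0.08 over all genes. Ext1 differed by 0.39 (adjusted p = 0.239), Ext2 by 0.45 (adjusted p = 0.0832) and Fam20b, the kinase that marks the linker for extension, by 0.49 (adjusted p = 0.110). Scaling to the percentile of those probes that cleared background everywhere, 2 of the 10 were called higher, and under epithelial centring all 10 were lower, with a median of -1.42.

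Of 9 chain sulfation genes tested, 3 were lower in the AER, 0 higher and 6 did not pass, with a median of 0.02. Hs3st3a1, a 3-O-sulfotransferase that adds a late and rare sulfate, stood at -4.69, -5.06 and -3.90 in the AER and at -0.88, 0.19, -0.56 and 0.00 in the ectoderm. All 4 ectoderm arrays and 1 of 3 AER arrays were well above background, and the groups did not overlap. The log2 difference was -4.24 (SE 0.34; adjusted p = 8.57e-05). It was -2.27 under normexp and -2.19 with the authors' deposited values, so its size is uncertain with 2 AER arrays not well above background.

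Hs3st6, of the same enzyme family, stood at 1.50, 1.01 and 1.46 against 3.19, 2.80, 2.69 and 2.73. It was 2.88-fold lower in the AER (adjusted p = 0.000969), with no overlap. Hs6st2, which adds 6-O-sulfate, a group that FGF binding to its receptor depends on, stood at -0.46, -0.31 and -0.27 against 1.29, 0.96, 0.84 and 1.14. It was 2.65-fold lower (adjusted p = 0.000552). Its relative Hs6st1 differed by -0.44 (adjusted p = 0.314), with another probe at 0.88 (adjusted p = 0.184). The early modifying enzymes Ndst1, Ndst2, Glce and Hs2st1 differed by 0.02 to 0.19 at their brightest probes, none past the threshold, and further Ndst1 probes by -0.03 and -0.22. Another 7 genes of the list did not reach the filter.

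**Figure D4:**
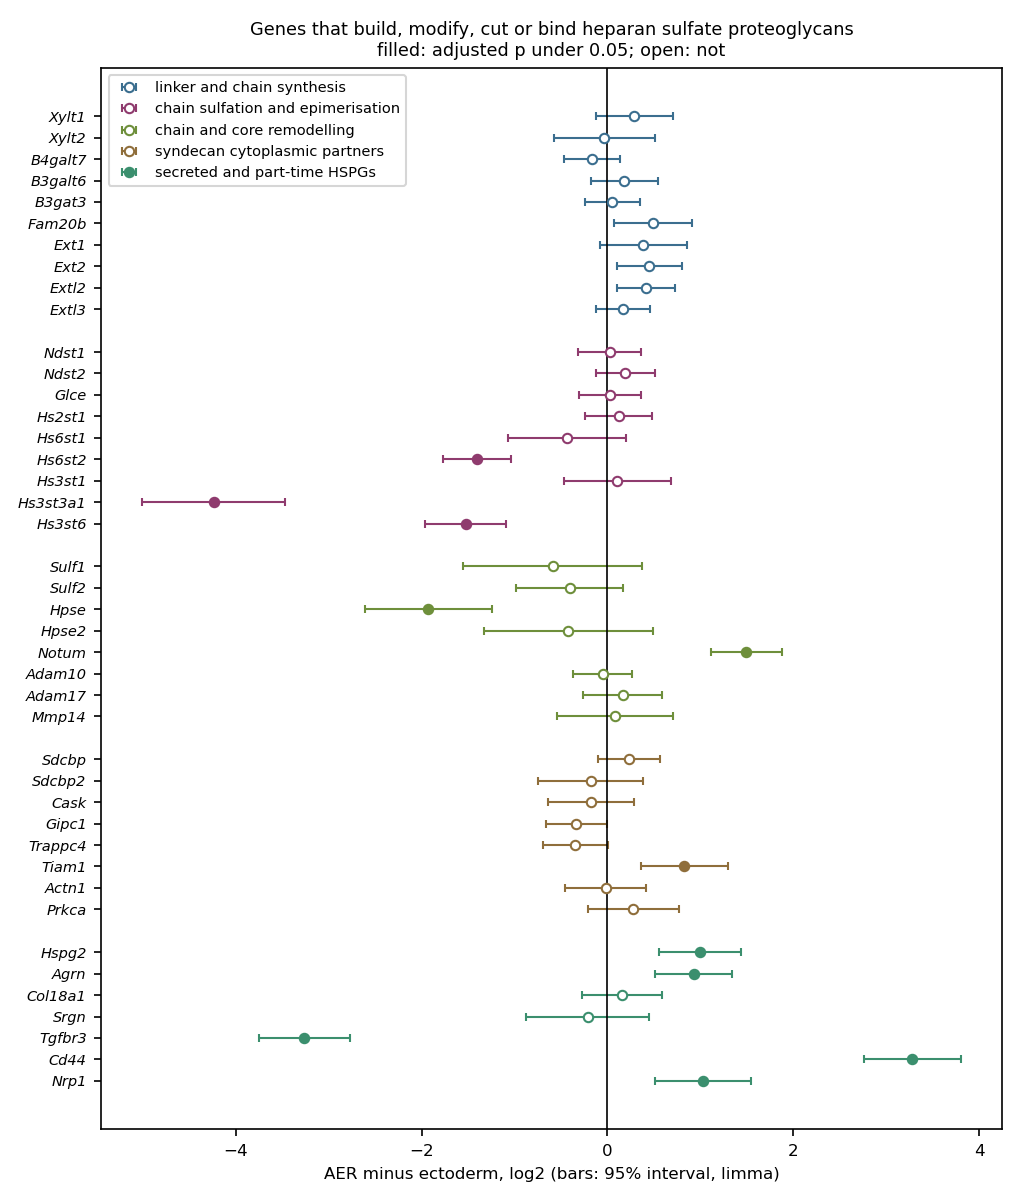
Log2 difference (AER minus ectoderm, x axis) with 95% intervals from limma for the 42 tested genes of heparan sulfate chain synthesis, sulfation, remodelling, syndecan tail partners and other heparan sulfate proteoglycans, coloured by list. Filled circles passed the adjusted threshold; Cd44 lies at 3.28, and Hs3st3a1 at -4.24, a value that was -2.27 under normexp.

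Of 8 genes that remodel the chain or shed the core protein, 1 was higher, 1 lower and 6 did not pass. Hpse, the heparanase that cuts the chain, stood at -3.37, -3.40 and -3.24 in the AER and at -1.33, -0.97, -2.27 and -1.05 in the ectoderm. It was lower by a log2 difference of -1.93 (SE 0.30; adjusted p = 0.00291), and -0.99 under normexp. Notum, a secreted enzyme first described as releasing glypicans and now known to inactivate WNT, was higher by 1.50 (adjusted p = 0.000527), and -0.16 under epithelial centring. The sulfatases Sulf1 and Sulf2, which remove 6-O-sulfate outside the cell, differed by -0.59 (SE 0.42; adjusted p = 0.370) and -0.41 (SE 0.25; adjusted p = 0.304), and another Sulf1 probe by 0.0116. The syndecan sheddases Adam10, Adam17 and Mmp14 differed by -0.05 to 0.16.

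Of 8 genes for proteins tied to the syndecan tail, 1 was higher and 0 were lower. Tiam1, a Rac activator, was higher by 0.83 (adjusted p = 0.0281). Dropping AER replicate 2 or 3, or ectoderm replicate 1, 2 or 3, ended this call (limma adjusted p from 0.0651 to 0.0808). So did averaging ectoderm replicates 2 and 4. The difference turned to -0.83 under epithelial centring. Sdcbp, encoding syntenin, the adaptor that binds the tails of all syndecans, differed by 0.24 (adjusted p = 0.306), with another probe at -0.10.

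Of 7 other heparan sulfate proteoglycans, 4 were higher, 1 was lower and 2 did not pass, with a median of 0.93. Cd44, 1 of these 4, was also among the known AER markers used to check the dissection. Agrn, encoding agrin, stood at 5.54, 5.92 and 5.73 in the AER and at 4.54, 5.06, 4.67 and 4.94 in the ectoderm. It was 1.90-fold higher (adjusted p = 0.00918), and -0.73 on the log2 scale under epithelial centring. Hspg2, encoding perlecan, was 2.00-fold higher (adjusted p = 0.00896). Its log2 difference was 0.55 under normexp (adjusted p = 0.0898), did not pass with the authors' deposited values either, and was -0.66 under epithelial centring. Both are basement membrane proteins, and a second probe gave 1.35 for Agrn and 1.10 for Hspg2.

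Cd44 and Nrp1 encode receptors that carry such chains on some of their molecules. Cd44 stood at 1.57, 2.28 and 1.85 in the AER and at -1.71, -1.04, -1.57 and -1.21 in the ectoderm. It was 9.73-fold higher, a log2 difference of 3.28 (adjusted p = 4.77e-05), which was 2.49 under normexp and 2.52 with the authors' deposited values. Nrp1 was higher by 1.03 (adjusted p = 0.0172). That call ended when AER replicate 1 (0.0539) or AER replicate 2 (0.0576) was dropped, and the difference was -0.63 under epithelial centring. Tgfbr3, or betaglycan, the TGF-beta co-receptor, was the member of the list that went down. It stood at -2.24, -1.91 and -1.92 against 1.32, 1.50, 0.73 and 1.42, and was 9.61-fold lower in the AER (adjusted p = 3.73e-05). Its log2 difference of -3.26 was -2.46 under normexp. Col18a1 and Srgn did not pass, at 0.16 and -0.21.

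These 11 calls were also read within the slide rows and under the other centring. With the slide row as a block, 9 of the 11 stayed past the threshold, and Tiam1 (adjusted p = 0.0595) and Nrp1 (adjusted p = 0.0530) did not. All 11 genes kept their direction in both rows; Cd44, Hs3st3a1 and Tgfbr3 stayed past the threshold in row 1, and these with Hpse in row 2. Epithelial centring lowers every log2 difference by 1.66. Genes lower before it thus stayed lower, and genes higher by less than 1.66 turned, by construction. Under it 6 of the 11 kept direction and call, Cd44 higher and Hpse, Hs3st3a1, Hs3st6, Hs6st2 and Tgfbr3 lower. The sign of Agrn, Hspg2, Notum, Nrp1 and Tiam1 turned. Over all genes, 19731 of 20826 were called lower under this centring. Limb mesenchyme markers were lower and pan-epithelial markers higher on the same AER arrays, and their part in these differences was not tested.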

How the data were processed

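Microarrays (Agilent, Cy3) of 3 AER and 4 ectoderm samples were analysed. Per the file headers, Feature Extraction 10.7.3.1 made the deposited processed signal, a linear intensity from which background and spatial trend were removed and which was not scaled across arrays. Those deposited files also give spot and background intensity and other columns, 0 or 1 flags for each spot. The authors' deposited matrix is on a log2 scale; per the submitters' processing notes limma was used, with steps not given in the sources used here. Normexp (offset 50) with quantile normalization came within 0.000108 of it.

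Here, control spots and spots called uneven or outlying were left out, spots of a probe were averaged as log2 values, and each array's 75th percentile over probes was subtracted. Genes took the kept probe with the highest mean. Names followed RefSeq accessions (26300 probes), symbols (2044) or older symbols (355), and otherwise the file. Groups were compared with limma 3.58.1 in R 4.3.3 (residual degrees of freedom 5, prior 3.50), checked on simulated data. Python 3.11.15, pandas 2.3.3 and matplotlib 3.10.9 served for sequences and plots. The number of arrays limits precision.

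Named were all members and, of each heparan sulfate list, the genes past the threshold with some others chosen after their values were seen. The members and lists were chosen with earlier results of these data known. Marker lists for endothelial, erythroid and macrophage cells had 0 of 8, 0 of 6 and 0 of 6 genes called, and neural, Schwann and melanoblast markers 2 of 6 higher. Alternatives covered background correction, scaling, filters, probe summary, slide row, replicate number, array weights and each array left out.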

Additional observations from a re-analysis of the deposited data

How the results depend on the processing

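Against 2 members lower and 0 higher, the count of lower members rose to 3, with Sdc3, under normexp (2 at the probe level), normexp plus quantile normalization and the authors' values. It was 1 with no filter on dim probes, 1 with ectoderm replicates 2 and 4 averaged, 0 within slide row 1, 0 within slide row 2, 10 under epithelial centring and 0 with no AER array but replicate 3, an alternative added after the data were seen that leaves out the arrays with wide spot noise. Leaving out each array in turn gave 1 to 2 lower members and 0 higher, among the kept probes too. With ectoderm replicates 2 and 4 averaged, 2266 genes differed over the whole array, against 3266 with them separate. The count of higher members was 1 (Sdc4) with normexp plus quantile normalization, with the authors' values, with array weights (not at the probe level) and with AER replicate 3 alone. Genes differing over the whole array numbered 653 within slide row 1, 1390 within row 2, 1533 with AER replicate 3 alone and 19942 under epithelial centring, against 3266.

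Replicate numbers are shared by the groups, but same-numbered arrays deviated together at r = -0.03, 0.19 and 0.13, so the numbers were not taken to pair them. With the replicate block 1 member was lower, Gpc3 at -1.06 (adjusted p = 0.0278); Gpc6 was at -0.62 (adjusted p = 0.109), and 2444 genes differed.

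Gpc3 and Gpc6 kept their sign in all settings run. Among members that did not pass, the sign turned for Sdc1 (0.15 with normexp, 0.27 with the authors' values and with normexp plus quantile normalization, which matches them and is called their recipe below), Sdc2 (0.0124 with quantile normalization, 0.00035 with the authors' values and with their recipe, 0.0296 with the percentile over the probes that cleared background everywhere, 0.34 within slide row 1, 0.0188 with ectoderm replicates 2 and 4 averaged, and -0.27 to 0.0384 with each array left out), Gpc1 (-0.22 with normexp, -0.0495 with the authors' values and with their recipe, -0.0075 within slide row 1, -0.0048 with AER replicate 3 alone, -0.0092 to 0.24 with each array left out), Gpc2 (0.0839 with the slide row as a block, 0.14 and 0.0215 within rows 1 and 2, -0.35 to 0.24 with each array left out) and Gpc4 (-0.0333 with the slide row as a block, -0.20 within row 2, -0.10 to 0.27 with each array left out). Epithelial centring turned Sdc4 to -0.96, Gpc1 to -1.50 and Gpc4 to -1.52 by construction. For the other changes the cause was not tested. Signal over background limits Gpc5 and the second Gpc3 probe.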
